A study of Mus musculus with 8 samples.

Results

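The data describe histone methylation at 5 genes of the extracellular matrix in C3H10T1/2, an established line of mesenchymal progenitor cells from a mouse embryo. The genes are Col1a1, Col1a2, Col3a1, Col5a2 and Fn1. Listed peaks were taken where they overlap a window drawn around each gene on the mouse build mm9, on chromosome 11 from 94797000 to 94815000 for Col1a1, on chromosome 6 from 4455000 to 4492000 for Col1a2, and on chromosome 1 from 45368000 to 45407000 for Col3a1, from 45431000 to 45560000 for Col5a2 and from 71632000 to 71700000 for Fn1. Of 7689 listed peaks of 3 histone marks, 5 met this rule, 1 at each gene. All 5 are peaks of H3K36me3, out of 4999 for that mark. No listed peak of H3K36me2 (1691 in all) or of H3K27me3 (999 in all) overlapped any of the 5 windows.

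The cells stably expressed histone H3.3 with a FLAG-HA tag, in 1 line wild type (WT) and in the other carrying methionine in place of lysine 36 (K36M), so both groups carry a tagged transgene. They were used at passages 10 to 15, and each mark was measured in 1 library per genotype by ChIP-seq with Drosophila S2 chromatin, equal to 5% of the mouse chromatin, as a spike-in. The labels do not say whether each line is a clone or what promoter drives the transgene, and the labelled cell type was not checked against markers, because the tables hold no expression. Values are reads per peak scaled to the spike-in by the authors. Reads inside the H3K36me3 peaks numbered 11294217 in WT and 6095048 in K36M. With 1 library per group there is no test between genotypes and no replicate error, and every interval below is a 95% interval of counting error only.

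Fibrillar collagens are long triple helices that assemble outside the cell into the fibres that give connective tissue its strength. Type I collagen is built from the products of Col1a1 and Col1a2, type III from that of Col3a1, and type V, whose chains include the product of Col5a2, is built into type I fibrils and limits their width. Fibronectin, from Fn1, is a secreted glycoprotein that binds integrins and collagen, and cells lay it down early in matrix assembly. Mesenchymal cells are known for transcribing these genes. H3K36me3 is placed over the bodies of transcribed genes by SETD2, which travels with RNA polymerase II. H3K36me2 is placed largely by the NSD enzymes and H3K27me3 by Polycomb repressive complex 2, the latter over silent regions. K36M histone is known to inhibit the enzymes that methylate H3 lysine 36.

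H3K36me3 was lower in the K36M library at all 5 genes, to between 30.6% and 36.8% of the WT value. Summed over the 5 peaks, which cover 321 kb, the WT library had 9227 spike-in normalized reads and the K36M library 3268, or 35.4% of WT. All 5 peaks were at least 2-fold lower, where 98.5% of all H3K36me3 peaks were, so this count does not set the genes apart. At a 4-fold threshold 0 of the 5 were called, against 9.96% of all peaks. The median log2 ratio of the 5 peaks was −1.46, beside −1.71 for all H3K36me3 peaks. All 5 lay above the mark's median, which by construction 50.0% of peaks do, but Col1a1 did so by less than its counting error. These distances from the median depend on adding no pseudocount. With 55.2 normalized reads, the 5th percentile of the values, added to both genotypes, they became 0.12 at Col3a1, 0.11 at Col1a2, 0.025 at Fn1 and 0.010 at Col5a2, and Col1a1 was 0.11 below the median.

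**Figure D1:**
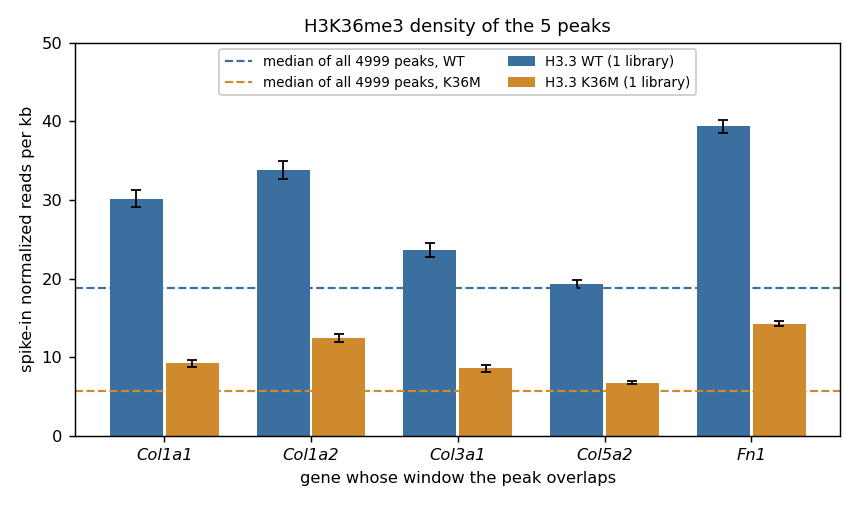
Spike-in normalized H3K36me3 reads per kb of peak at each of the 5 genes (bars, 1 library each, axis from 0) with 95% counting intervals, and the medians of all 4999 H3K36me3 peaks as dashed lines. The WT bars run from 19.3 at Col5a2 to 39.3 at Fn1 and the K36M bars from 6.77 to 14.3, and every bar is above its genotype's dashed line.

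The type I collagen genes gave different ratios from each other. At Col1a1, which encodes the alpha 1 chain, the peak ran on chromosome 11 from 94791000 to 94827199 with a WT value of 1092 and a K36M value of 334 normalized reads, or 2800 and 1517 reads before scaling. The ratio was 30.6% of WT (interval of the ratio 0.287 to 0.325), a 3.27-fold lower value. Its log2 ratio of −1.71 differed from the mark's median by 0.0026 (−0.088 to 0.093). This places Col1a1 at percentile 50.6 of the H3K36me3 peaks, in the middle of the list. The peak covered the whole Col1a1 window, but only 49.7% of its length lay inside it, with 6.0 kb beyond the low end and 12.2 kb beyond the high end. The value therefore includes sequence outside the gene. In RefSeq, by gene order alone, the neighbouring protein-coding genes are Gm11544 and Sgca, and the tables do not divide the signal between them and Col1a1.

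At Col1a2, the gene of the alpha 2 chain, the peak ran on chromosome 6 from 4455800 to 4492999 and matched the gene window closely. It covered 97.8% of the window, and 97.3% of its own length lay inside. The WT value was 1258 and the K36M value 463 normalized reads, or 3226 and 2105 reads. The ratio was 36.8% of WT (0.348 to 0.389), a 2.72-fold lower value and the highest ratio of the 5 genes. Its log2 ratio of −1.44 was 0.27 above the mark's median (0.19 to 0.35), at percentile 85.5. The Col1a1 ratio was 0.830 times that of Col1a2, with an interval of 0.763 to 0.903, so these peaks differed beyond counting error in these libraries. The medians of their chromosomes differed the same way, at 28.3% of WT on chromosome 11 and 32.6% on chromosome 6. Among H3K36me3 peaks of their own chromosomes, Col1a1 was at percentile 73.8 and Col1a2 at 76.4. Whether the difference is particular to the genes was not tested.

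Col3a1 encodes the single chain of type III collagen, and its peak ran on chromosome 1 from 45369400 to 45412399. The WT value was 1015 and the K36M value 369 normalized reads, or 2602 and 1676 reads. The ratio was 36.3% of WT (0.342 to 0.387), 2.75-fold lower, and the log2 ratio of −1.46 was 0.25 above the mark's median (0.16 to 0.34), at percentile 84.0. The peak covered 96.4% of the window and went 5.4 kb past its high end, which is the side of Col5a2.

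Col5a2 encodes the alpha 2 chain of type V collagen and is the neighbour of Col3a1, known to be transcribed towards it from the other side. The tables used here give no strand for Col5a2 or Fn1, so the start and end sides of both genes are background knowledge that they are read towards lower coordinates. Its peak on chromosome 1 from 45421600 to 45530599 began 9.2 kb after the end of the Col3a1 peak. Of all H3K36me3 peaks, 16.5% had a closer neighbour of the same mark, and the median gap was 42.6 kb. The Col5a2 peak had a WT value of 2101 and a K36M value of 738 normalized reads, or 5387 and 3356 reads. The ratio was 35.1% of WT (0.337 to 0.367), 2.85-fold lower, with a log2 ratio of −1.51 at percentile 79.6. It was 109 kb long, yet covered only 77.2% of the window. The uncovered 29.4 kb all lay at the high end, the side of the gene's start by that orientation, and the peak reached 9.4 kb past the low end. The neighbouring pair had similar ratios: the Col3a1 ratio was 1.03 times that of Col5a2 (0.958 to 1.12).

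Fn1 had the strongest signal of the 5. Its peak on chromosome 1 from 71603800 to 71699399 had a WT value of 3762 and a K36M value of 1364 normalized reads, or 9645 and 6201 reads. The WT value was above 98.8% of all H3K36me3 peaks. The ratio was 36.3% of WT (0.351 to 0.374), 2.76-fold lower, and the log2 ratio of −1.46 was 0.25 above the mark's median (0.20 to 0.30), at percentile 83.8. The peak covered 99.1% of the Fn1 window and ran 28.2 kb beyond its low end, so 70.5% of the peak was inside. The next protein-coding gene on that side in RefSeq, by gene order alone, is Atic, an enzyme of purine synthesis. Whether the peak reaches Atic was not measured, and its reads are not divided by gene.

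**Figure D2:**
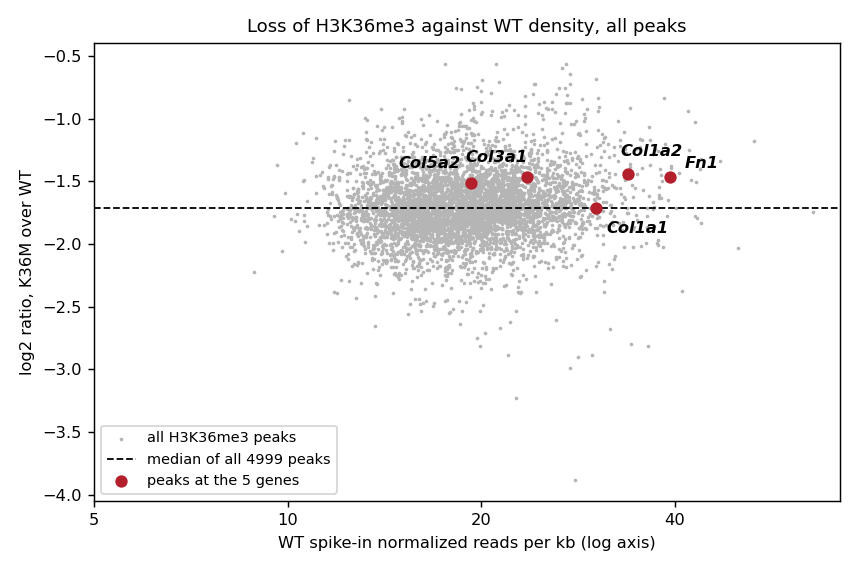
Each point is 1 of the 4999 H3K36me3 peaks, by WT spike-in normalized reads per kb (log axis) and log2 ratio of K36M over WT, with the peaks at the 5 genes in red and the median ratio dashed. Col1a1 lies on the median, the other 4 genes lie above it at log2 ratios of −1.51 to −1.44, and Fn1 is near the right edge of the cloud.

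In the order of ratios, Col1a2, Col3a1, Fn1 and Col5a2 followed each other from 36.8% to 35.1% of WT, and Col1a1 came last at 30.6%. Among the 10 pairs of genes, the interval of the ratio of ratios held 1 in 6, which are all the pairs without Col1a1. The widest of these 6 differences was between Col1a2 and Col5a2, at 1.05 (0.976 to 1.12). In the 4 pairs with Col1a1 the interval left out 1, the nearest being Col5a2 at 0.870 (0.805 to 0.939). Col1a1 is also the only one of these genes on chromosome 11, where the median peak was at 28.3% of WT. Its peak had the smallest share inside its gene window, 49.7%. Whether either bears on the difference was not tested. Ratios between 35.1% and 36.8% of WT are not rare, since 297 H3K36me3 peaks (5.94%) fell inside that range.

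The peaks at 4 of the 5 genes were dense in H3K36me3 before any loss. Per kb of peak, the WT level was 39.3 normalized reads at Fn1 (38.6 to 40.1), 33.8 at Col1a2 (32.7 to 35.0), 30.2 at Col1a1 (29.1 to 31.3), 23.6 at Col3a1 (22.7 to 24.5) and 19.3 at Col5a2 (18.8 to 19.8). The median of all H3K36me3 peaks was 18.8. None of these intervals overlapped, so the order stands beyond counting error. Fn1, Col1a2 and Col1a1 were above 99.6%, 98.5% and 96.5% of all peaks, Col3a1 above 82.5%, and Col5a2, at 54.4%, near the middle.

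In K36M the order of the 5 genes was the same. The levels were 14.3 normalized reads per kb at Fn1, 12.4 at Col1a2, 9.22 at Col1a1, 8.57 at Col3a1 and 6.77 at Col5a2, beside a median of 5.74 over all peaks. Here the counting interval of Col1a1 (8.76 to 9.70) overlapped that of Col3a1, which began at 8.17. Fn1 and Col1a2 stayed at percentiles 98.9 and 97.8 of the K36M densities. Col1a1 was at 92.0, below its WT place, while Col3a1 at 88.7 and Col5a2 at 70.7 were above theirs. The densest of these genes in K36M, Fn1, was below the WT level of the least dense, Col5a2.

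How far the genes stood from other peaks depended on the peaks they were set beside. Dense peaks had higher ratios in general: in the quintile of lowest mean density the median log2 ratio was −1.79, against −1.60 in the quintile of highest mean density. The mean density includes the K36M value, which is also the numerator of the ratio, so part of this trend is built in. Split by WT density, which is the denominator, the lowest and highest quintiles had medians of −1.74 and −1.66. Beside the densest quintile, to which they belong, Col1a2, Col3a1 and Fn1 were 0.16, 0.14 and 0.13 above the median, and Col1a1 was 0.11 below it. Col5a2 belongs to the middle quintile of density and was 0.22 above that quintile's median.

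The genes were also set beside peaks of the same chromosome and of similar length. Col3a1, Col5a2 and Fn1 were 0.28, 0.23 and 0.27 above the median of the 338 H3K36me3 peaks on chromosome 1. Col1a2 was 0.17 above the median of the 182 peaks on chromosome 6, where the median was −1.62. Chromosome 11 had a median of −1.82 over 408 peaks, and Col1a1 was 0.11 above it. Beside peaks in the same quintile of length, the 4 genes other than Col1a1 were 0.25 to 0.30 above the median, and Col1a1 0.018 above.

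**Figure D3:**
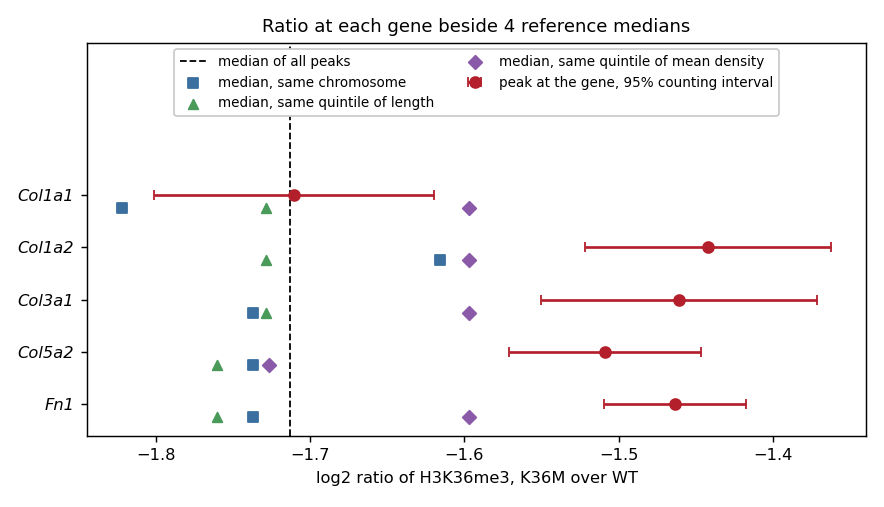
Log2 ratio of H3K36me3, K36M over WT, at each gene (red, with 95% counting interval) beside the median of all peaks (dashed) and the medians of peaks on the same chromosome, in the same quintile of length and in the same quintile of mean density. The intervals of Col1a2, Col3a1, Col5a2 and Fn1 leave out the median of all peaks, and that of Col1a1 holds it while leaving out the medians of its chromosome and of its density quintile.

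The nearest listed peaks of the other marks lay outside all 5 genes. A listed H3K36me2 peak overlapped 326 of all H3K36me3 peaks (6.52%), and a listed H3K27me3 peak 46 (0.920%), so the lack of overlap at these 5 is the usual state of this list. The tables list peaks only, and the level of these marks inside the genes was not measured here.

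At Col5a2 the closest H3K36me2 peak, on chromosome 1 from 45561600 to 45572799, began 1.6 kb beyond the high end of the window. Its value was 378 in WT and 79.0 in K36M, or 20.9% of WT (17.2% to 25.4%). Further H3K36me2 peaks at 63.2 kb and 205.8 kb on the same side were at 16.0% and 16.7% of WT. The median of all H3K36me2 peaks was 23.9% of WT. The peaks at 16.0% and 16.7% had intervals of 11.8% to 21.6% and 13.4% to 20.7%, below that median.

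Beyond the high end of the Fn1 window, at 62.0 kb, an H3K36me2 peak from 71762000 to 71783199 had a value of 846 in WT and 173 in K36M, or 20.5% of WT (18.0% to 23.3%). A longer peak, from 71896800 to 71972999, had 3062 in WT and 825 in K36M, a ratio with an interval of 25.3% to 28.7%. The nearer peak was below the median of its mark and the farther one above it. No H3K36me2 or H3K27me3 peak was listed within 250 kb of the low end of the Fn1 window.

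Col1a1 was the only one of the 5 genes with listed peaks of all 3 marks within 250 kb. An H3K36me2 peak lay 49.2 kb below the window, with values of 2026 in WT and 513 in K36M (25.3%, interval 23.4% to 27.4%). Below it were 3 H3K27me3 peaks, the nearest 101.6 kb from the window. All 3 had ratios below the median of 94.3% for that mark, the smallest ratio being 84.0% of WT. The intervals of the nearest peak (78.9% to 102.4%) and of the one with the smallest ratio (73.9% to 95.4%) held that median. That of the remaining peak (83.1% to 94.0%) ended just below it. Above the Col1a1 window, 2 shorter H3K36me3 peaks were at 24.7% (22.2% to 27.5%) and 29.5% (25.7% to 33.9%) of WT. The first of these was below the mark's median and the interval of the second held it. Farther above the window, 2 H3K36me2 peaks at 194.4 kb and 224.8 kb were at 24.6% (21.9% to 27.6%) and 26.8% (23.7% to 30.4%) of WT.

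Col1a2 stood alone. Its own H3K36me3 peak was the single listed peak of any mark within 250 kb of the window. The nearest other H3K36me3 peak was 718.6 kb away, a gap wider than that of 95.5% of H3K36me3 peaks. The nearest H3K36me2 peak was 3466 kb away, and the nearest H3K27me3 peak 18615 kb, wider than for 99.3% of H3K36me3 peaks. Both lay on the high side, and neither mark had a listed peak between Col1a2 and the low end of its chromosome.

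**Figure D4:**
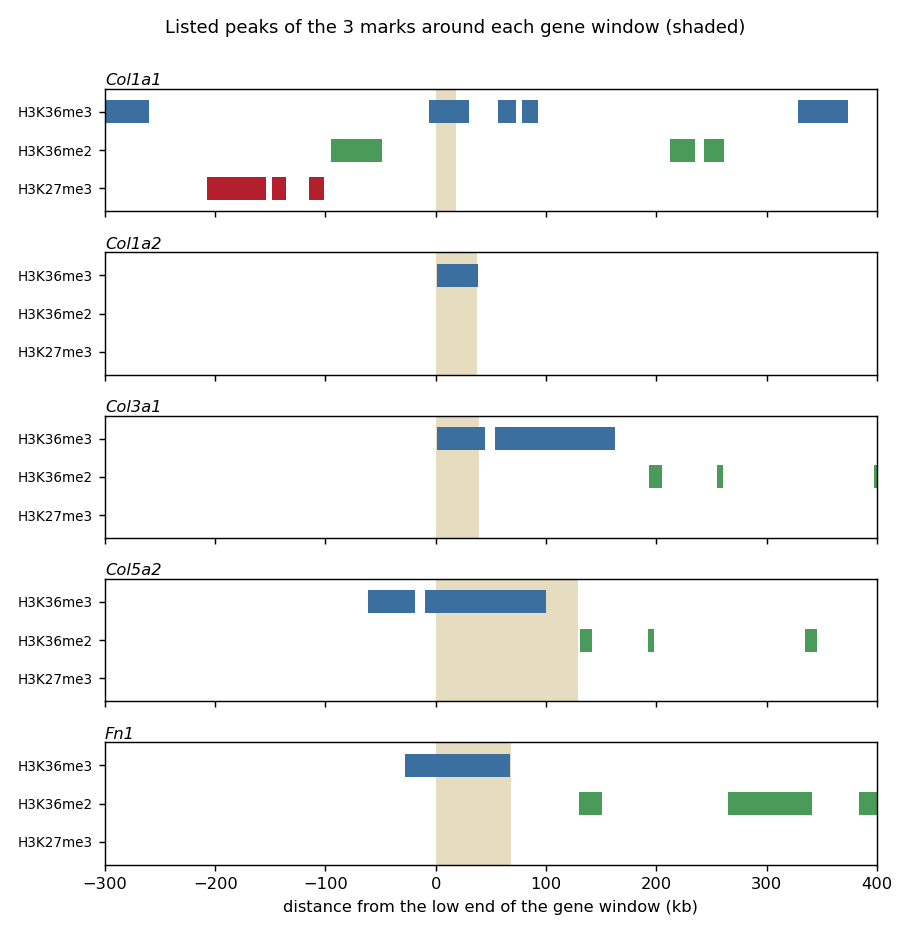
Listed peaks of H3K36me3 (blue), H3K36me2 (green) and H3K27me3 (red) around each gene window (shaded), by distance in kb from the window's low end. Each window holds a blue block and no green or red block, and the green blocks beside Col5a2 and Fn1 lie to the right of the window, at higher coordinates.

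The RefSeq promoter table, built on GRCm38.p6, held 2 of the 5 genes, Col1a2 and Col3a1, and their 250 bases before the annotated start are shown as the promoter stretches of genes whose bodies a listed H3K36me3 peak covers. The letters CCAAT (reverse ATTGG), an element found in many promoters, and TATAAA (reverse TTTATA), the TATA box, were searched on both strands over the whole window of 300 bases, which ends 50 bases after the start. Capitals mark the matches inside the printed part. The coordinates belong to GRCm38.p6 and cannot be set beside the mm9 peaks, so whether a peak covers these bases was not measured.
Col1a2, chr6:4505368-4505617, plus strand: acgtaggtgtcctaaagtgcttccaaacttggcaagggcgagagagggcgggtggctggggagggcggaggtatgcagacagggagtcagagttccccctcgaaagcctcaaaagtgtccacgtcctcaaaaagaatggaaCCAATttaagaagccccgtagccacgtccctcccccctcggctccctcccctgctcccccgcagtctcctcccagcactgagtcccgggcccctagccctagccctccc
Col3a1, chr1:45311288-45311537, plus strand: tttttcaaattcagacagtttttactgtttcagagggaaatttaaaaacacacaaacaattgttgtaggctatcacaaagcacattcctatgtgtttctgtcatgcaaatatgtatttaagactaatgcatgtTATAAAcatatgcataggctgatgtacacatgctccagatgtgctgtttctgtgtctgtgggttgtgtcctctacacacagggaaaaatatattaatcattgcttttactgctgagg
Col1a2 held CCAAT 109 bases before the start and, on the other strand, ATTGG from base 1 of the transcript, just past the printed part. Col3a1 held TATAAA 117 bases before the start and no CCAAT. Over all 32851 promoter windows of the table, 37.4% held CCAAT and 13.6% held TATAAA on either strand. A match describes the letters only.

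Peaks elsewhere in the genome had nearly the same WT density and ratio as each of the 5. Likeness was the distance in scaled log2 WT density and log2 ratio over the 2 H3K36me3 libraries, and the 2 nearest peaks were taken for each gene. Closeness in these values is therefore built in. Length was not used, and the nearest match of Col1a2 was 6.8 kb long, beside 37.2 kb at Col1a2. For Col5a2 the nearest, on chromosome 7 from 28958400 to 28983999, had 19.3 normalized reads per kb in WT and 35.0% of that in K36M. For Col1a1 it was a 139 kb peak on chromosome 19 from 8961600 to 9100599, with 30.3 reads per kb and 30.6%. Fn1 had the most distant match, on chromosome 4 from 62156000 to 62185599, with 39.2 reads per kb and 35.6%. Col1a2 was matched by a peak on chromosome 10 from 4542400 to 4549199, and Col3a1 by one on chromosome 11 from 82710600 to 82721199. All 10 matches lay outside the 5 genes' windows, and none was given a gene name, because the gene table used here is of another build. For the same reason the wider list of collagen, matrix, collagen-processing and receptor genes could not be placed on these peaks.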

How the data were processed

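ChIP-seq libraries of 3 marks in WT and K36M C3H10T1/2 cells gave 3 tables of peaks, 1 value per genotype. The values are a signal, which the authors obtained by scaling the reads of a peak to the Drosophila chromatin (per the file headers). Per the submitters' processing notes, Bowtie 1.0.0 was used with mm9 and dm6. For the peak caller and scaling formula nothing is given in the sources used here, nor is it known whether the tables list every called peak. Coordinates are printed as deposited; starts are multiples of 200, as in windows counted from 0. Reads were recovered by dividing each column by its common step (0.39 in WT and 0.22 in K36M for H3K36me3). Peaks overlapping a gene window by at least 1 bp were kept, all of them were named, and K36M was divided by WT with no pseudocount. Intervals are exact Clopper-Pearson 95% intervals, exact Poisson intervals for densities and exact conditional intervals for ratios of ratios, and cover counting error only; PCR copies are not independent molecules. Percentiles give the share of all peaks of the mark with a lower value. The calculations were tested on simulated counts. The genes and lists were chosen with earlier results of these data known. Alternatives were a pseudocount, equal totals over the listed peaks of the mark, rounded factors, other reference medians, other thresholds and wider windows. The 2 input libraries were not analysed here. Python 3.11.15, numpy 2.4.6, pandas 2.3.3 and scipy 1.17.1 were used.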

Additional observations from a re-analysis of the deposited data

How the results depend on the processing

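The loss at all 5 genes depends on how the libraries are scaled. Both H3K36me3 libraries were also scaled to the same total over the listed H3K36me3 peaks. The log2 ratios then reversed to 0.27 at Col1a2, 0.26 at Col3a1, 0.21 at Col5a2 and 0.25 at Fn1. At Col1a1 the log2 ratio became 0.0057, which is no change within its counting error. That scaling removes the summed loss over the listed peaks, so each value is a gene's log2 ratio minus that of the summed peaks. Scaling to all mapped reads was not tested. Under the equal totals 0 of the 5 peaks were at least 2-fold lower, and the share over all peaks was not computed. Deviations from the median did not move, by construction. With the spike-in values, 0 of the 5 were called at a 4-fold threshold, against 9.96% of all peaks. A pseudocount of 55.2, the 5th percentile of the values, gave log2 ratios of −1.56 at Col1a1, −1.34 at Col1a2, −1.34 at Col3a1 and −1.44 at Col5a2. It raises the ratios of weak peaks most, so the deviations from the median became −0.11 at Col1a1, 0.11 at Col1a2, 0.12 at Col3a1, 0.010 at Col5a2 and 0.025 at Fn1. Beside peaks of the same quintile of mean density, the deviations were −0.11 at Col1a1, 0.16 at Col1a2, 0.14 at Col3a1 and 0.13 at Fn1. Beside the same chromosome they were 0.11 at Col1a1 and 0.17 at Col1a2, and beside the same quintile of length 0.30 at Fn1. Factors rounded to 2 decimals shift the log2 ratios of all 5 genes alike, for example to between −1.76 and −1.66 at Col1a1. Only at Fn1, with −1.51 to −1.41, did this pass the counting interval. With windows extended by 10 kb and 50 kb, 1 and 2 genes had a listed H3K36me2 peak. Of 63 values under alternatives, the other 36 stayed within the counting interval, or within 1.5 times a count. No paired analysis was possible because each mark and genotype has 1 library, and no replicate could be left out for the same reason. The error between cultures was not measured.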
